A study of Mus musculus with 18 samples.

Results

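Coq10b, Capn8, Map2k6, Maco1, Spon2 and Cenpm are 6 genes whose liver RNA differed in the same direction, in 2 mouse models, between mice given CMPF and mice given vehicle on a high-fat diet (HFD). They were picked on that difference itself, with the sign required to match in both models, so their CMPF values are described here without a test. The array carries 11 probe sets (groups of short probes read out as 1 value) that name exactly 1 of these genes, out of 34945 probe sets with a single gene symbol. They are 6 of the 18193 genes with such a probe set and 6 of the 13221 genes that passed a filter on low signal. All 11 probe sets passed that filter. The brightest probe set stands for each gene, and its other probe sets are given beside it.

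CMPF is a furan fatty acid metabolite found in blood, and the arrays ask how it alters liver RNA when given before the HFD or after weeks of HFD. Liver came from wildtype CD1 mice, an outbred strain, with no genetic modification in any group. In the prevention model, 1 week of vehicle or of CMPF at 6 mg/kg per day preceded the HFD, which drew 60% of its energy from fat and lasted 4 weeks (sample labels) or 4-5 weeks (series text). Reversal mice had the diet first, for 6 weeks, and 2 weeks of vehicle or of CMPF at 6 mg/kg per day followed. Whether the HFD went on during those 2 weeks is not in the labels. For this model, "on HFD" therefore means at least the 6 weeks before treatment. Each model also had a chow group, and the labels do not say what, if anything, those mice were injected with. Each of the 6 groups had 3 arrays. Whether each array was a separate animal is not in the labels, so p-values measure the spread between arrays, which may be technical.

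Values are log2 signals, so that a difference of 1 is 2-fold. Prevention CMPF arrays 2 and 3 could hardly be told apart: 0 genes were over 2-fold apart between them, against at least 115 in every other pair of arrays, and they were averaged and counted as 1 sample (n = 2 in that group). The 7 measured hepatocyte markers had a mean level between 13.17 and 13.71 on every array. Markers of other tissues varied more in chow. Pancreatic acinar markers had 5.90 to 7.83 in prevention chow and 5.70 to 5.86 in vehicle HFD, and 5.20 to 6.73 and 5.52 to 5.68 in reversal. Skeletal muscle markers had 4.06 to 5.84 and 4.86 to 4.94 in prevention, and 3.75 to 4.92 and 3.70 to 4.01 in reversal. Their part in the diet differences was not tested. The 3' to 5' index, the 3' minus the 5' signal of control transcripts, grows as RNA gets shorter. Prevention chow had an index of 1.43 ± 0.512 (SD, n = 3), and the means lay between 2.62 and 3.15 in the other 5 groups. Reversal chow replicate 2 had a median correlation of 0.948 with the arrays of its model, against at least 0.973 for every other array. In bulk liver, fewer cells of a type and less RNA per cell cannot be told apart.

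The 6 genes belong to unlike processes. Coq10b encodes a mitochondrial protein that binds coenzyme Q, the lipid that carries electrons along the respiratory chain; the role of this protein family is best known from yeast. Map2k6 encodes MKK6, a kinase that phosphorylates and activates the p38 MAP kinases in stress and cytokine signalling. Capn8 encodes a calcium-dependent cysteine protease of the calpain family, known mainly from the stomach lining. Maco1 encodes macoilin, a membrane protein of the endoplasmic reticulum whose role is known mainly from neurons of the worm Caenorhabditis elegans. Spon2 encodes mindin, a secreted protein of the extracellular matrix that takes part in innate immune recognition in mice. Cenpm encodes a subunit of the protein network that sits on centromeric chromatin and supports kinetochore assembly in dividing cells.

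The promoters of 4 of the genes are shown because Coq10b and Maco1 had the most alike levels of any pair among the 6, Capn8 was higher with them, and Cenpm went the other way. Each is 300 bases of the gene's own strand, from RefSeq on build GRCm38.p6. It runs from 250 before to 50 after the RNA start listed for that promoter, which need not be the first of the gene. Capitals mark matches on either strand to CCAAT (the box bound by NF-Y; ATTGG on the strand shown), to TGACG (the core of a cyclic AMP response element; CGTCA on the strand shown) and to TGANTCA (the AP-1 site). TGACG also lies inside the full element TGACGTCA, which none of them holds. Coq10b lies at chr1:55052520-55052819 on the plus strand, Maco1 at chr4:134853296-134853595 on the minus strand, Capn8 at chr1:182564757-182565056 on the plus strand and Cenpm at chr15:82244287-82244586 on the minus strand. The RefSeq gene span reaches upstream of the window for Maco1 (to 134853931), Capn8 (from 182564749) and Cenpm (to 82244773). Their windows therefore lie inside the gene span.
Coq10b: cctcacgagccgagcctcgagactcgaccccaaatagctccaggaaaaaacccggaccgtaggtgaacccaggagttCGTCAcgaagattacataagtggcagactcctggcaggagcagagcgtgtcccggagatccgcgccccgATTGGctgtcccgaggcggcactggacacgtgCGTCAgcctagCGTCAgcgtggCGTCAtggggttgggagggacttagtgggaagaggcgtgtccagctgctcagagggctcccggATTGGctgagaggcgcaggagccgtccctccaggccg
Maco1: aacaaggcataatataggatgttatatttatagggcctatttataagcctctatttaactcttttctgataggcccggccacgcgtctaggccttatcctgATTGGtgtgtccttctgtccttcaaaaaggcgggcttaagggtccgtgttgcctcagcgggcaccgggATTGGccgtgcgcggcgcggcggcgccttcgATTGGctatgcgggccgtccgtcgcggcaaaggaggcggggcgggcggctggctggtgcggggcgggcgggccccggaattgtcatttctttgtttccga
Capn8: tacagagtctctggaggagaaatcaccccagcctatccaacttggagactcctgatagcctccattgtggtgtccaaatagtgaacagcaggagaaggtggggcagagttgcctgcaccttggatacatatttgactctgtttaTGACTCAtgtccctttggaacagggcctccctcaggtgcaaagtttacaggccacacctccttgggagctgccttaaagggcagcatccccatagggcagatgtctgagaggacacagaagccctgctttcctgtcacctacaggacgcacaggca
Cenpm: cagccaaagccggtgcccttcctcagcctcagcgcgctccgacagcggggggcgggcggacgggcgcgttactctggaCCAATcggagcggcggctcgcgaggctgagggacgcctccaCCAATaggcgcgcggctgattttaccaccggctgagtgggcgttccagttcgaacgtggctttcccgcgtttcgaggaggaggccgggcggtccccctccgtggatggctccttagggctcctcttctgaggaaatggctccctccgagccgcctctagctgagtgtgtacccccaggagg

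The 5 members in the RefSeq promoter table have 7 promoters there, since Map2k6 has 3 RNA starts. CCAAT was found in 3 of the 7 promoters, those of Coq10b, Maco1 and Cenpm, and in 37.4% of all 32851 mouse promoters of this length. The Maco1 window holds 3 matches, at 149, 81 and 50 bases before the start, and 3.37% of all promoters hold at least 3. The windows of Coq10b and Cenpm hold 2 each, and 11.7% of all promoters hold at least 2. TGACG was found in 1 of the 7, against 20.8% of all promoters. The Coq10b window holds 4 matches to it, at 173, 72, 61 and 50 bases before the start, and 0.231% of all promoters hold at least 4. The cut-offs for repeated matches equal the counts in these windows, so nothing is read from how rare they are. TGANTCA was found in Capn8, at 106 bases before the start, and in the first Map2k6 promoter, against 7.81% of all promoters. CACGTG, the E-box, was found in Coq10b alone of the 7 and in 7.15% of all promoters, and GGGCGG, the GC box, in 3 of the 7 and in 35.7% of all. TATAAA was found in 2 of the 7 and in 13.6% of all, and the direct repeat spaced by 1 base that nuclear receptors such as the PPARs bind in 0 of the 7 and in 0.0396% of all. No motif searched was held by both Coq10b and Capn8, and the windows of CMPF-higher Maco1 and CMPF-lower Cenpm both held CCAAT. These matches describe letters in a window and say nothing of whether a factor binds there.

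Coq10b, the coenzyme Q binding protein, was higher with CMPF in both models by nearly the same amount. Its prevention levels (probe set 1428487_s_at, log2) were 8.51, 8.62 and 8.41 in chow, 7.88, 8.04 and 7.84 in vehicle HFD, and 8.42 and 8.57 in CMPF HFD. Its reversal levels were 7.79, 7.12 and 7.57 in chow, 8.30, 8.31 and 8.26 in vehicle HFD, and 8.88, 9.02 and 8.86 in CMPF HFD. Every CMPF sample lay above every vehicle HFD sample of its model. The CMPF difference was 0.58 ± 0.155 (log2, SE), 1.49-fold, in prevention and 0.63 ± 0.138, 1.55-fold, in reversal. The chow groups stood on opposite sides: prevention chow (mean 8.51 ± 0.107, SD, n = 3) was at the level of CMPF HFD (8.50 ± 0.11, n = 2), whereas reversal chow (7.49 ± 0.338, n = 3) was the lowest group of its model and CMPF HFD (8.92 ± 0.0846, n = 3) the highest. The second probe set, 1460510_a_at, was also higher on average with CMPF, by 0.76 ± 0.463 in prevention and 0.55 ± 0.414 in reversal. The chow levels of this probe set in prevention were 9.28, 8.93 and 9.61, above all CMPF HFD samples. Its prevention levels were 7.05, 7.57 and 6.80 in vehicle HFD and 7.86 and 7.94 in CMPF HFD, without overlap. Its reversal levels were 9.25, 7.74 and 8.01 in vehicle HFD and 8.88, 8.09 and 9.68 in CMPF HFD, with overlap.

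Maco1, the macoilin gene, followed a similar order of groups. Its prevention levels (1428883_at) were 8.71, 8.59 and 8.60 in chow, 8.22, 8.18 and 8.17 in vehicle HFD, and 8.62 and 8.74 in CMPF HFD. Its reversal levels were 8.59, 8.29 and 8.16 in chow, 8.51, 8.49 and 8.79 in vehicle HFD, and 9.05, 9.13 and 8.87 in CMPF HFD. CMPF and vehicle HFD did not overlap in either model. The CMPF difference was 0.49 ± 0.135 (log2, SE), 1.41-fold, in prevention and 0.42 ± 0.121, 1.34-fold, in reversal. The other probe sets of Maco1 were less clear. Probe set 1428884_at was higher by 0.17 ± 0.165 in prevention and 0.46 ± 0.147 in reversal, with overlapping groups in both. Probe set 1430418_at, the dimmest of them, was lower by 0.45 in prevention (-0.45 ± 0.363) and higher by 0.16 ± 0.324 in reversal, so it does not share the sign that chose the gene.

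Capn8, the calpain of the stomach lining, had larger differences and more scatter. Its prevention levels (1425916_at) were 6.18, 6.40 and 6.86 in chow, 5.29, 6.06 and 5.19 in vehicle HFD, and 6.29 and 6.82 in CMPF HFD. Its reversal levels were 6.33, 5.76 and 6.07 in chow, 5.37, 6.11 and 6.45 in vehicle HFD, and 7.64, 7.50 and 6.90 in CMPF HFD. All CMPF samples lay above all vehicle HFD samples in both models. The CMPF difference was 1.04 ± 0.346 (log2, SE), 2.05-fold, in prevention and 1.37 ± 0.309, 2.58-fold, in reversal. In reversal the CMPF group also lay above all 3 chow samples, while in prevention it lay among them. The second probe set, 1421634_at, was higher by 1.34 ± 0.305 in reversal, much as the first, and by 0.20 ± 0.341 in prevention, where its levels were 4.88, 4.82 and 4.84 in vehicle HFD and 5.07 and 5.01 in CMPF HFD. A list of 7 gastric epithelium markers, of which 2 (Atp4a and Pgc) were under the filter on low signal, had a mean level of 4.72 to 4.74 in prevention CMPF HFD against 4.80 to 4.92 in vehicle HFD, and of 5.02 to 5.15 against 5.03 to 5.07 in reversal. Their part in the Capn8 difference was not tested.

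Map2k6, the p38-activating kinase, had the largest CMPF difference of the 6 in the reversal model. Its single probe set (1426850_a_at) read 5.26, 5.09 and 5.60 in prevention chow, 4.99, 4.64 and 5.84 in vehicle HFD, and 5.95 and 5.74 in CMPF HFD. In reversal it read 4.74, 4.67 and 4.93 in chow, 5.55, 5.04 and 5.58 in vehicle HFD, and 6.62, 6.51 and 7.32 in CMPF HFD. Each reversal group lay wholly above the one before it, from chow through vehicle HFD to CMPF HFD. In prevention, vehicle HFD replicate 3 lay between the CMPF samples, so the groups overlapped. The CMPF difference was 1.43 ± 0.278 (log2, SE), 2.69-fold, in reversal and 0.69 ± 0.31, 1.61-fold, in prevention, where it was 0.43 without vehicle HFD replicate 2 and 1.03 without vehicle HFD replicate 3.

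Spon2, the matrix protein mindin, was lower with CMPF, mainly in the reversal model. Its prevention levels (1417860_a_at) were 5.47, 5.30 and 5.73 in chow, 5.66, 4.95 and 5.24 in vehicle HFD, and 4.98 and 4.97 in CMPF HFD. Its reversal levels were 6.09, 6.05 and 6.01 in chow, 6.22, 6.08 and 6.15 in vehicle HFD, and 5.31, 5.31 and 5.21 in CMPF HFD. In reversal the CMPF samples lay far below all 6 others, which spanned 6.01 to 6.22. In prevention, vehicle HFD replicate 2 lay just below the CMPF samples, so the groups overlapped. The CMPF difference was -0.88 ± 0.15 (log2, SE), 1.84-fold lower, in reversal and -0.31 ± 0.168, 1.24-fold lower, in prevention. The prevention value was -0.12 without vehicle HFD replicate 1 and -0.48 without replicate 2. The dim second probe set, 1458175_at, differed by -0.19 ± 0.127 in prevention and 0.06 ± 0.114 in reversal, and so did not follow the first in the model with the larger difference. The 8 Kupffer cell and macrophage markers, cells known to meet mindin in immune responses, had a mean level of 7.09 to 7.79 in reversal CMPF HFD and 7.27 to 7.99 in vehicle HFD, and of 6.33 to 7.47 and 6.33 to 8.48 in prevention. With CMPF, 0 of these 8 markers were higher in prevention (median difference -0.515) and 4 of 8 in reversal (median 0.030), and 0 passed the test in either model. The 9 stellate cell and fibroblast markers, which cover makers of matrix, had 7.74 to 8.06 and 7.79 to 8.32 in reversal, and 7.69 to 7.86 and 7.83 to 8.14 in prevention. Of these 9, 2 were higher with CMPF in prevention (median -0.129) and 4 in reversal (median -0.195), and 0 passed. Their part in the Spon2 difference was not tested.

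Cenpm, the centromere subunit, was lower with CMPF, mainly in the prevention model. Its single probe set (1418184_at) read 5.66, 6.10 and 6.00 in prevention chow, 6.32, 6.67 and 6.41 in vehicle HFD, and 5.49 and 5.52 in CMPF HFD. In reversal it read 5.61, 6.00 and 5.83 in chow, 7.31, 7.22 and 6.55 in vehicle HFD, and 6.73, 6.40 and 6.55 in CMPF HFD. Prevention CMPF samples lay below all chow and vehicle HFD samples. Reversal CMPF samples lay above all chow samples and overlapped vehicle HFD, whose replicate 3 was at their median. The CMPF difference was -0.96 ± 0.212 (log2, SE), 1.95-fold lower, in prevention and -0.47 ± 0.189, 1.38-fold lower, in reversal. The reversal value was -0.71 without vehicle HFD replicate 3 and -0.32 without replicate 1. Markers of proliferating cells, of which 9 of 10 were measured and 5 of those were under the filter, had a mean level of 3.74 to 3.76 in prevention CMPF HFD, 3.82 to 4.07 in vehicle HFD and 3.66 to 3.84 in chow. In reversal they had 3.96 to 4.09, 3.82 to 4.20 and 3.89 to 4.15. Of the 4 tested markers, 1 was higher with CMPF in prevention and 2 in reversal, with median differences of -0.099 and -0.075, and 0 passed. Mki67 among them differed by -0.61 (limma adjusted p = 0.581) in prevention and 0.02 in reversal. Their part in the Cenpm difference was not tested.

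**Figure D1:**
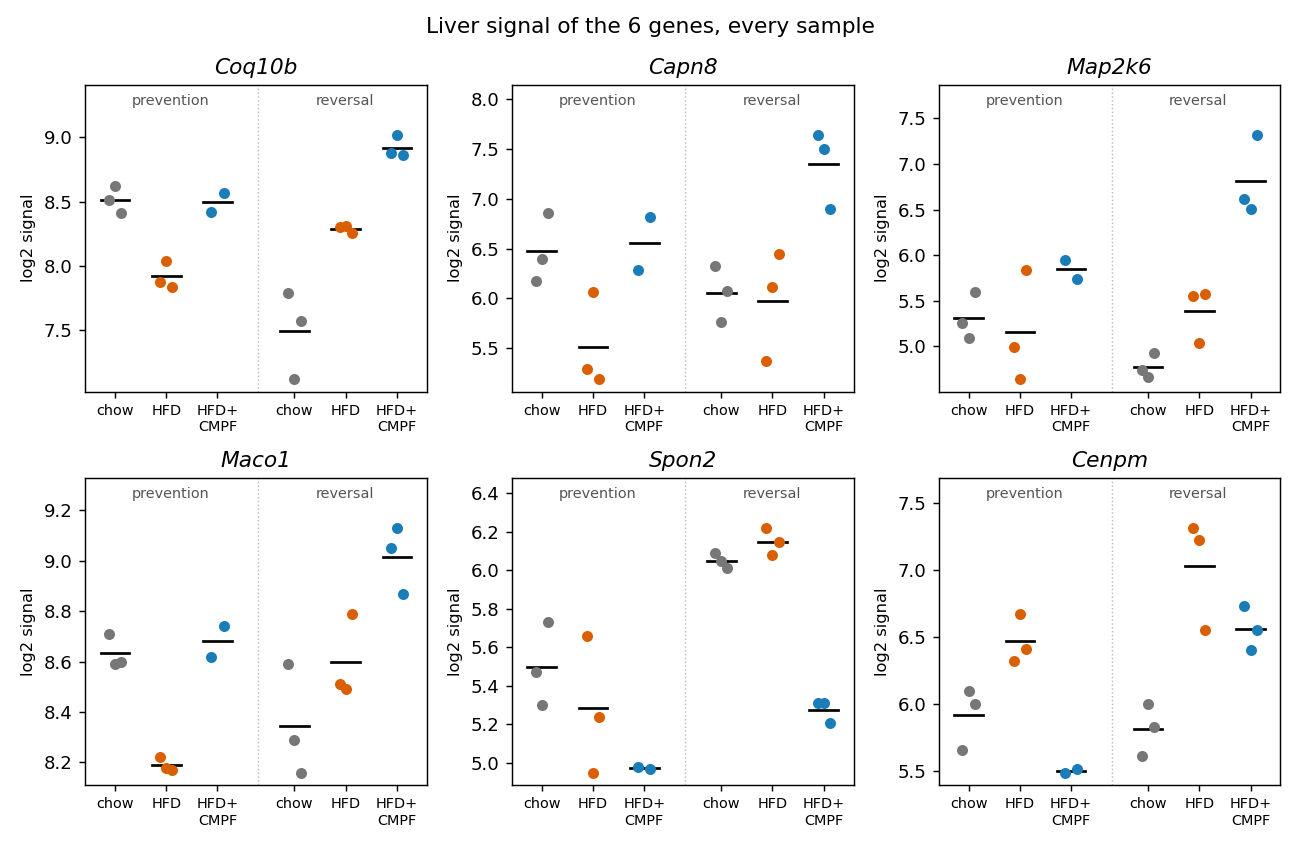
Log2 signal (vertical axis) of each gene's brightest probe set in every sample, by group on the horizontal axis, with lines for group means and prevention CMPF arrays 2 and 3 as 1 averaged point. In reversal, Coq10b, Capn8, Map2k6 and Maco1 had their highest means in CMPF HFD, at 8.92, 7.35, 6.82 and 9.02, and Spon2 had its lowest mean in CMPF HFD in both models, at 4.97 in prevention and 5.28 in reversal.

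Set side by side, 4 genes were higher and 2 lower with CMPF, and their groups of CMPF and vehicle HFD did not overlap for 4 of 6 genes in prevention, against 30.7% of all tested genes, and for 5 of 6 in reversal, against 8.83%. These shares follow from how the genes were chosen and nothing is read from them. The sign in both models was shared by 5790 genes, 43.8% of those tested, and 114 genes, 0.862%, shared it without overlap in either model; Coq10b, Capn8 and Maco1 are among these. The member value closest to 0, where the sign would turn, was that of Spon2 in prevention (-0.31), and 274 genes including all 6 had both differences at least that large with a shared sign. Ranked by the smaller of their t statistics in the 2 models among the genes with a shared sign, Coq10b was at 1, Maco1 at 2, Capn8 at 6, Cenpm at 17, Map2k6 at 32 and Spon2 at 71. Ranked by the smaller of the 2 differences, Capn8 was at 14, Map2k6 at 34, Coq10b at 50, Cenpm at 95, Maco1 at 125 and Spon2 at 274. Both orders come from the differences that chose the genes and only describe them. In the fit over all tested genes, limma called 0 genes for CMPF in prevention (0%; 1060 had an unadjusted p under 0.05) and 5 in reversal (0.0378%; 634 unadjusted). The 6 genes are not among the 5, which is no test of them, since this difference chose them.

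**Figure D2:**
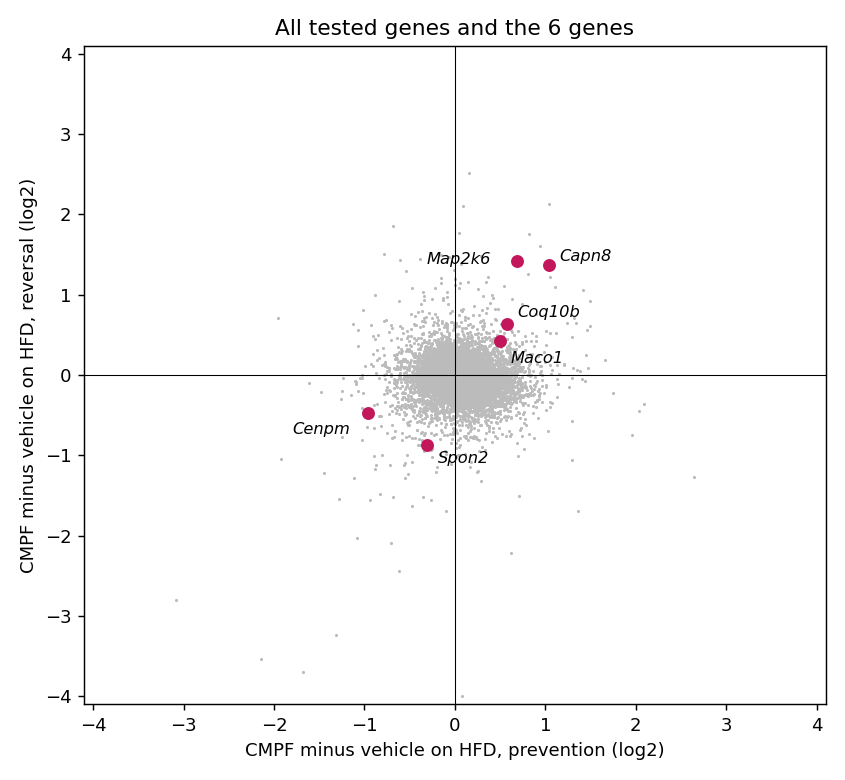
CMPF minus vehicle on HFD (log2) in prevention on the horizontal axis and in reversal on the vertical axis, for every tested gene in grey and the 6 genes in red. The red points lie at the upper right and lower left because they were chosen there, with Map2k6 (0.69, 1.43) and Capn8 (1.04, 1.37) farthest from the cloud.

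**Figure D3:**
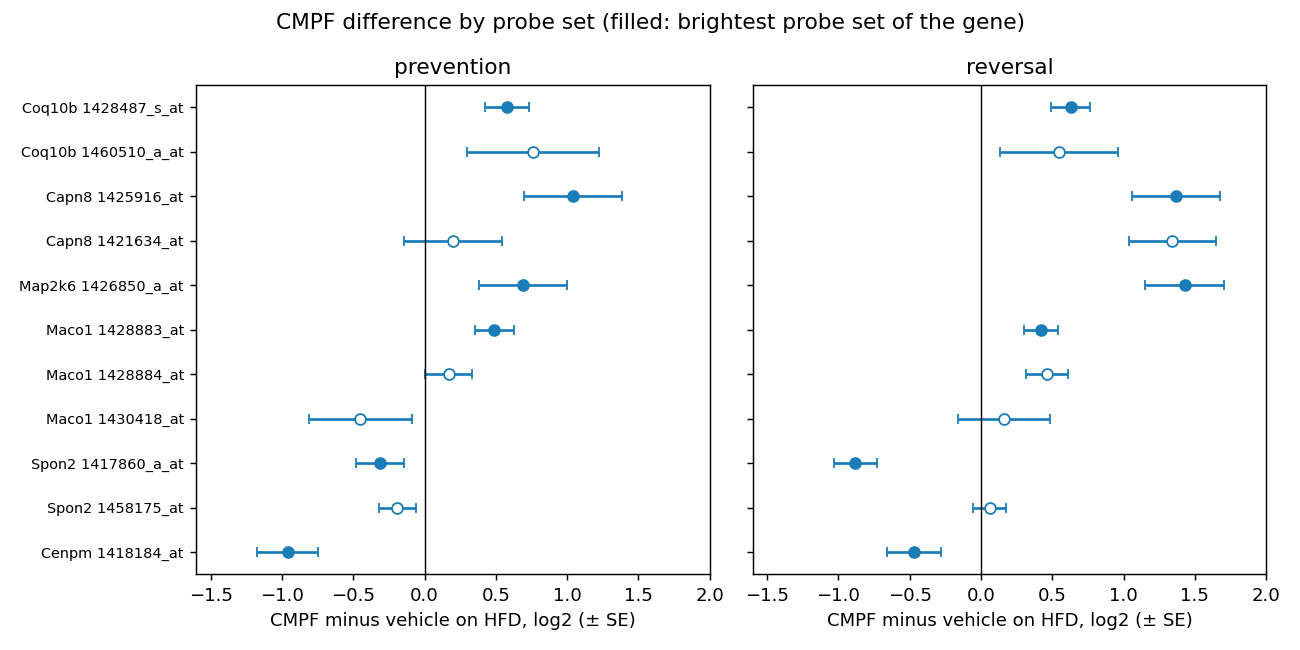
CMPF minus vehicle on HFD (log2, bars are SE) for each of the 11 probe sets in prevention and reversal, with the brightest probe set of each gene filled. Both probe sets of Coq10b and of Capn8 lie above 0 in both models, while 1 of 3 for Maco1 (1430418_at, -0.45 in prevention) and 1 of 2 for Spon2 (1458175_at, 0.06 in reversal) lie on the other side of 0 from their gene.

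With the diet, Coq10b passed the threshold in both models, in opposite directions, Maco1 in prevention only and Cenpm in reversal only. HFD against chow uses no CMPF sample, yet it shares the vehicle HFD samples with the difference that chose the genes, so it is not independent of that choice. Under limma's test over all 13221 genes, 2 of the 6 fell in prevention, where 5.57% of all tested genes changed and 3.83% fell. Coq10b fell by 0.59 (-0.59 ± 0.138 log2, SE; 1.51-fold; adjusted p = 0.0298) and Maco1 fell by 0.44 (-0.44 ± 0.121; 1.36-fold; adjusted p = 0.0487). Capn8 (-0.97 ± 0.309, adjusted p = 0.0782) and Cenpm (0.55 ± 0.189, adjusted p = 0.0965) missed the threshold of 0.05, although neither overlapped chow, and Map2k6 (-0.16, adjusted p = 0.763) and Spon2 (-0.22, adjusted p = 0.404) overlapped it. Groups did not overlap for 4 of the 6, against 29.2% of all tested genes. The second probe set of Coq10b, fitted with all probe sets, fell by 2.13 (-2.13 ± 0.414, 4.38-fold, adjusted p = 0.0169), with chow at 9.28, 8.93 and 9.61 and vehicle HFD at 7.05, 7.57 and 6.80. Within chow this probe set was lower where the index was higher, at 9.61, 9.28 and 8.93 for an index of 0.97, 1.33 and 1.98. The 3' to 5' index did not overlap between these groups, at 0.97 to 1.98 in chow (mean 1.43) and 2.66 to 3.19 in vehicle HFD (mean 2.84). Diet and RNA length therefore cannot be told apart in prevention, and a covariate fit cannot separate them. With the index as a covariate, the differences were about as large with wider errors, -0.57 ± 0.176 for Coq10b (adjusted p = 0.202) and -0.44 ± 0.154 for Maco1 (adjusted p = 0.265). The Coq10b call was lost, with adjusted p from 0.0548 to 0.116, on leaving out chow replicate 1 or 3 or any 1 of the 3 vehicle HFD samples. The Maco1 call held in 7 of the 17 fits that leave out 1 sample, with adjusted p from 0.0296 to 0.17. Like that of Coq10b, it was lost without chow replicate 1 or 3 or any 1 of the 3 vehicle HFD samples (0.105 to 0.17). Leaving out a sample of another group changes only the error and not the difference. The mean of the 3 Maco1 probe sets stood at 0.01 (adjusted p = 0.97).

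In reversal, 2 of the 6 rose with HFD, where 2.45% of all tested genes changed and 2.17% rose. Coq10b rose by 0.80 ± 0.138 (log2, SE; 1.74-fold; limma adjusted p = 0.0122) and Cenpm by 1.21 ± 0.189 (2.32-fold; adjusted p = 0.00714). For Cenpm the vehicle HFD samples, at 6.55 to 7.31, all lay above chow, at 5.61 to 6.00. Both calls held in 17 of 17 fits that leave out 1 sample, and both were lost when the reversal arrays were fitted alone (adjusted p = 0.0894 and 0.0599). Map2k6 (0.61 ± 0.278, adjusted p = 0.212) did not overlap chow, while Maco1 (0.25 ± 0.121, adjusted p = 0.24), Capn8 (-0.08, adjusted p = 0.908) and Spon2 (0.10, adjusted p = 0.702) did. Groups did not overlap for 3 of the 6, against 23.3% of all tested genes. The second Coq10b probe set stood at 1.32 ± 0.414 (2.5-fold, adjusted p = 0.116). Within vehicle HFD it was lower where the index was higher, at 9.25, 8.01 and 7.74 for an index of 1.55, 2.90 and 3.43. The index was 3.15 ± 0.566 in reversal chow and 2.62 ± 0.969 in vehicle HFD (SD, n = 3 each).

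The difference between the diet effects of the models was tested directly. It was 1.39 ± 0.196 (log2, reversal minus prevention; limma adjusted p = 0.0163) for Coq10b and 0.69 ± 0.171 (adjusted p = 0.0287) for Maco1, 2 of the 6, against 11.0% of all tested genes, 8.84% with a difference above 0. The difference was 0.89 ± 0.438 for Capn8 (adjusted p = 0.182), 0.77 ± 0.393 for Map2k6 (0.194), 0.66 ± 0.268 for Cenpm (0.112) and 0.32 ± 0.212 for Spon2 (0.321). All 6 values, from the brightest probe sets, lay above 0, and the median over all tested genes was 0.031. The share of all tested genes above 0 is not given here, so nothing is read from that count. Other probe sets lay below 0 for Capn8 (1421634_at, -0.01), Maco1 (1428884_at, -0.09, and 1430418_at, -0.41) and Spon2 (1458175_at, -0.28). With the index as a covariate, the Map2k6 value was 0.40 ± 0.471. The second Coq10b probe set gave 3.45 ± 0.586 (adjusted p = 0.0155). Within prevention chow and within reversal vehicle HFD that probe set was lower where the index was higher. The part of RNA length in its value was not tested. The Coq10b difference was lost without prevention chow replicate 1 (adjusted p = 0.0506) and, at about the same size, with the index as a covariate (1.36 ± 0.246, adjusted p = 0.148). The Maco1 difference held in 10 of 17 fits that leave out 1 sample, with adjusted p from 0.0127 to 0.0778, and stood at 0.06 (adjusted p = 0.867) for the mean of its probe sets. Its losses among those fits all came on leaving out a chow or vehicle HFD sample. By the brightest probe sets, CMPF HFD in prevention lay at the chow level for Coq10b, Maco1 and Capn8. In reversal, by the same probe sets, it lay above chow for all 3. The second Coq10b probe set put prevention CMPF HFD at 7.86 to 7.94, below chow at 8.93 to 9.61. Group means for Maco1 were 8.63 ± 0.0646 in chow, 8.19 ± 0.0232 in vehicle HFD and 8.68 ± 0.0861 in CMPF HFD in prevention, and 8.35 ± 0.222, 8.60 ± 0.169 and 9.02 ± 0.131 in reversal (SD). These comparisons share the vehicle HFD samples and are set side by side only as levels.

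**Figure D4:**
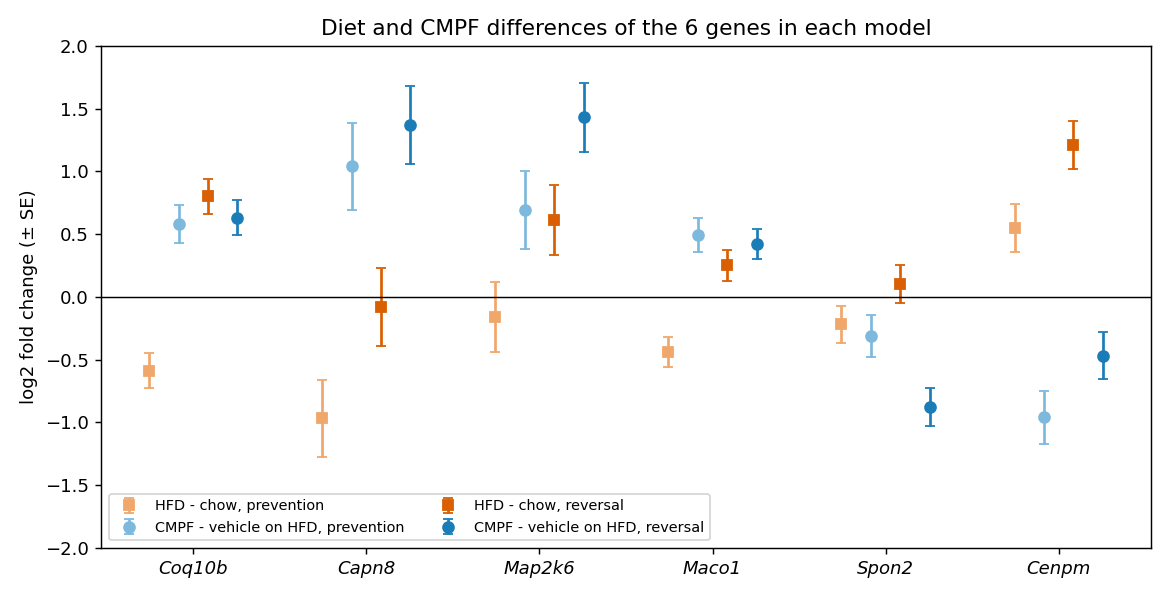
Log2 fold change (vertical axis, bars are SE) of HFD against chow and of CMPF against vehicle on HFD for each of the 6 genes in both models. The diet values of Coq10b lie on opposite sides of 0 (-0.59 in prevention, 0.80 in reversal), while its CMPF values lie together (0.58 and 0.63).

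The levels of some of the genes went together across samples. After the mean of each model was subtracted, Pearson's r over the 17 samples was 0.89 between Coq10b and Maco1, 0.84 between Capn8 and Maco1, 0.76 between Coq10b and Map2k6, 0.74 between Coq10b and Capn8, and 0.70 between Maco1 and Map2k6. Spon2 had r = -0.69 with Map2k6 and 0.03 with Cenpm. These values carry the group differences that chose the genes. With the mean of each group subtracted instead, which leaves only the scatter among samples of 1 group, r was 0.39 between Coq10b and Maco1, 0.48 between Capn8 and Maco1 and 0.39 between Coq10b and Capn8. Pairs with Map2k6 turned sign, to -0.29 with Coq10b, -0.19 with Maco1, 0.22 with Spon2 and, from 0.57, to -0.43 with Capn8. Between Maco1 and Cenpm r went from -0.13 to -0.67. The samples share arrays and their RNA quality. By the brightest probe sets, the group-centred r of the 6 genes with the 3' to 5' index lay between -0.35 (Map2k6) and 0.25 (Capn8). That of the other probe sets is not given here. The probe sets of 1 gene had a model-centred r of 0.74 for Coq10b, 0.75 for Capn8, 0.16 for Spon2, and 0.57, 0.31 and -0.08 for the 3 pairs of Maco1.

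The genes most like each of the 6 were taken as the 3 with the highest r over the same 17 samples, model means removed. Such r values carry the group differences that chose the 6 genes and only describe them. For Coq10b the 3 genes were Pgm2l1 (r = 0.945), an enzyme that makes glucose bisphosphate, Maff (0.924), a small Maf transcription factor, and Maco1 (0.885). For Maco1 they were Coq10b (0.885), Lonrf1 (0.874) and Fchsd2 (0.869). Coq10b and Maco1 were each on the other's list, and with group means removed their r was 0.39. The list of Capn8 held Maco1 (0.840), Gfra1 (0.824), a receptor of GDNF, and the RIKEN transcript 0610005C13Rik (0.796). For Map2k6 the 3 genes were Ciart (0.917), a repressor of the circadian clock, Homer2 (0.889), a scaffold protein of synapses, and Rhobtb1 (0.858). Rhobtb1 is also 1 of the 5 genes called for CMPF in reversal (1.21), but it differed by -0.16 in prevention, against 0.69 for Map2k6. For Spon2 the 3 genes were Scd1 (0.727), the stearoyl-CoA desaturase that makes monounsaturated fatty acids, Syne3 (0.723), a nesprin, and Mmp14 (0.720), a membrane-bound matrix metalloproteinase. Scd1 differed with CMPF by -3.08 in prevention and -2.81 in reversal. For Cenpm they were Dpcd (0.857), Ptges2 (0.827), a prostaglandin E synthase, and Umps (0.817), an enzyme of pyrimidine synthesis.

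Other genes of the same pathways were set beside the members. For CMPF, 0% of all tested genes passed in prevention and 0.0378% in reversal, so nothing particular to a pathway is read from a count of 0. Of 11 tested coenzyme Q genes other than Coq10b, 0 passed with CMPF in prevention and 0 in reversal (0 and 1 at an unadjusted p under 0.05), with medians of -0.093 and -0.142 against 0.017 and -0.009 over all tested genes. Coq10a, the paralogue of Coq10b, differed by -0.10 ± 0.196 and 0.03 ± 0.175. The smallest p values were those of Coq4, a protein of the synthesis complex, in prevention (-0.30, adjusted p = 0.784) and of Coq8a, an atypical kinase of the same complex, in reversal (-0.44, adjusted p = 0.937). With HFD, 2 of the 11 rose in prevention and 0 fell, namely Coq8a (0.83 ± 0.185, adjusted p = 0.027) and Coq4 (0.67 ± 0.181, adjusted p = 0.0467), where Coq10b fell. Of all tested genes, 5.57% passed with HFD in prevention and 2.45% in reversal. In reversal 0 of 11 passed (6 at an unadjusted p under 0.05), the smallest p being that of the hydroxylase Coq7 (1.40 ± 0.366, adjusted p = 0.0593), and the median was 0.340 against 0.032 over all tested genes.

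Of 12 tested calpain genes other than Capn8, 0 passed with CMPF in either model (1 and 1 at an unadjusted p under 0.05). Capn2, the large subunit of m-calpain, differed by 0.30 in prevention and -0.19 in reversal, and Capns1, the small subunit it shares with mu-calpain, by 0.16 and -0.28, the latter with the smallest p of the list in reversal (adjusted p = 0.989). In prevention the smallest p was that of Capn7 (0.72 ± 0.124, adjusted p = 0.188), a calpain without the calcium-binding domain of the classical members. Capn7 was also the 1 gene of 12 that passed with HFD in prevention, against 5.57% of all tested genes, where it fell by 0.53 (-0.53 ± 0.111, adjusted p = 0.0218). In reversal 0 passed (6 unadjusted), with the smallest p for Capn3 (-1.30, adjusted p = 0.074). Capn9, the partner of Capn8 in the stomach, was under the filter on low signal.

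Of 18 tested genes of the p38 cascade other than Map2k6, 0 passed with CMPF in either model (4 and 2 at an unadjusted p under 0.05). Map2k3, the closest relative of Map2k6 and the other main activator of p38, differed by -0.16 in prevention and 0.03 in reversal. Map2k4 differed by 0.21 and -0.18, and Mapk14, which encodes p38 alpha, by -0.16 and 0.27. The smallest p values were those of Mapkapk5, a kinase downstream of p38, in prevention (0.38, adjusted p = 0.477) and of Map3k5, the upstream kinase ASK1, in reversal (1.16 ± 0.275, adjusted p = 0.305). With HFD, 1 of 18 passed in prevention, against 5.57% of all tested genes, the transcription factor Atf2, which fell by 0.68 (-0.68 ± 0.167, adjusted p = 0.0332). In reversal 0 passed (5 unadjusted), with Map2k3 closest (0.57 ± 0.143, adjusted p = 0.0519).

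Of 9 tested genes of spondins, thrombospondins and their integrin receptors other than Spon2, 0 passed with CMPF in either model (0 and 1 at an unadjusted p under 0.05). The smallest p values were those of the Wnt enhancers Rspo2 in prevention (0.20, adjusted p = 0.784) and Rspo3 in reversal (-0.36, adjusted p = 0.58). Spon1 was under the filter. With HFD, the integrin subunit Itgb1 fell by 1.33 in prevention (-1.33 ± 0.314, adjusted p = 0.03), 1 of 9 against 5.57% of all tested genes. In reversal 0 passed (0 unadjusted), and Itgb1 stood at 0.50 (adjusted p = 0.349).

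Of 12 tested genes of the centromere network other than Cenpm, 0 passed with CMPF in either model (1 and 0 at an unadjusted p under 0.05). Cenpu, a subunit that helps recruit the kinase Plk1, differed by -0.75 in prevention (adjusted p = 0.481), with the smallest p of the list, and by 0.10 in reversal. Cenpn, which binds the centromeric histone, had the smallest p in reversal (0.24, adjusted p = 1). Cenpa, that histone, differed by 0.35 and -0.13, and Cenpk by -0.07 and 0.19, while Cenpi and Cenph were under the filter. With HFD, Cenpu rose in prevention by 0.84 ± 0.23 (adjusted p = 0.0485) and Cenpl in reversal by 1.22 ± 0.22 (adjusted p = 0.0146), 1 of 12 in each model, against 5.57% and 2.45% of all tested genes. Every HFD call in prevention among these pathway genes was lost with the index as a covariate, with adjusted p from 0.189 to 0.49. Cenpu (0.90), Capn7 (-0.46) and Coq8a (0.62) then stood within 1.5 times their first values, while Coq4 (0.26), Atf2 (-0.33) and Itgb1 (-0.60) were smaller by more than that. Every one was also lost without prevention chow replicate 1 (0.103 to 0.161) or replicate 3 (0.0835 to 0.203), and the Cenpl call without reversal vehicle HFD replicate 1 (0.0625) or with the reversal arrays fitted alone (0.0599). Among the 17 fits that leave out 1 sample, the Capn7 call held in 13 and the Coq8a, Atf2 and Itgb1 calls in 12 each. The Coq4 call held in 6 and the Cenpu call in 3. The Coq4, Coq8a, Atf2 and Itgb1 calls were also lost without any 1 of the 3 prevention vehicle HFD samples (0.0523 to 0.125). The Capn7 and Cenpu calls were lost without prevention vehicle HFD replicate 1 or 2 (0.0577 to 0.12).

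**Figure D5:**
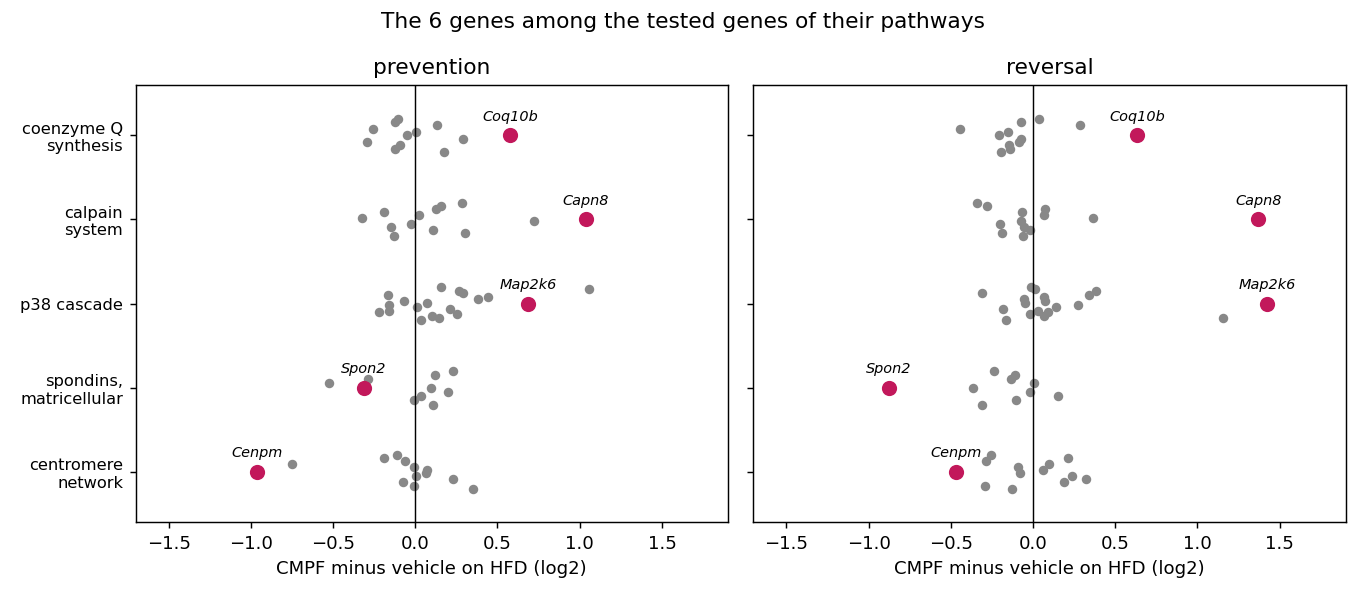
CMPF minus vehicle on HFD (log2, horizontal axis) in prevention and reversal for the tested genes of each pathway (1 row each, grey) and for the member in that pathway (red). Coq10b, Capn8 and Map2k6 lie to the right of 0 in both models because they were chosen there. The medians of the other genes of their rows lie between -0.142 and 0.124, and a median does not show where single genes lie. Nothing is read from the distance between a member and its row.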

How the data were processed

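Liver RNA was hybridised to Affymetrix arrays, 18 in 6 groups. The authors deposited log2 values made with RMA in Affymetrix Expression Console 1.1, per the submitters' processing notes. RMA corrects background, makes the arrays' distributions alike and summarises probes. Which arrays were normalised together is not given in the sources used here; array means were 5.09 in prevention and 5.25 in reversal, so levels are compared within a model. Arrays have no read depth, and their number limits the precision.

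Of 45101 probe sets, 34945 had exactly 1 symbol, 932 had several, 9160 were not listed and 64 were controls. The 40% with the lowest mean over all arrays (under 4.01 log2) were dropped, and the brightest probe set stood for a gene. Prevention CMPF arrays 2 and 3 were averaged, leaving 17 samples. The test was limma's (version 3.58.1, R 4.3.3) in 1 model of 6 group means (11 residual degrees of freedom), with Benjamini-Hochberg adjustment over 13221 genes and a threshold of 0.05. The fit was tested on simulated data. Group samples "do not overlap" where every value of 1 group exceeds every value of the other.

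The 6 genes and the pathway and marker lists were chosen with earlier results of these data known. Beside the members, the text names 14 fixed relatives, for each list and comparison the genes past the threshold or else the gene with the smallest p, and for each member the 3 genes with the highest correlation. Promoters are from RefSeq on GRCm38.p6; Spon2 has no entry. Alternatives were another normalisation, no filter, probe-set means, all 18 arrays, 1-model fits, the RNA index as a covariate, a replicate block, each sample left out and, chosen after seeing the data, probe sets tested separately.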

Additional observations from a re-analysis of the deposited data

Results flagged for a closer look

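The diet effect of Coq10b, the coenzyme Q binding protein gene, differed between the models by 1.39 (log2, reversal minus prevention, SE 0.196, limma adjusted p = 0.0163). It fell in prevention (-0.59) and rose in reversal (0.80), and all 3 vehicle HFD samples lay below chow in the former and above chow in the latter. Its second probe set gave a difference of 3.45. That probe set was lower where the 3' to 5' index was higher within a group. In reversal vehicle HFD it read 9.25, 8.01 and 7.74 at an index of 1.55, 2.90 and 3.43. The part of RNA length in the 3.45 was not tested. Maco1, the macoilin gene, differed by 0.69 (SE 0.171, adjusted p = 0.0287), from -0.44 in prevention to 0.25 in reversal, where the diet groups overlapped. Its probe sets 1428884_at and 1430418_at gave differences of -0.09 and -0.41. The flagged values of both genes rest on the vehicle HFD samples that also chose the genes. The 3' to 5' index averaged 1.43 in prevention chow and 2.84 in prevention vehicle HFD, without overlap, so diet and RNA length cannot be told apart there. With the index as a covariate, which cannot separate them, the differences kept about their size with wider errors. They were 1.36 (SE 0.246, limma adjusted p = 0.148) for Coq10b and 0.69 (SE 0.215, adjusted p = 0.232) for Maco1.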

How the results depend on the processing

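The number of genes past the threshold moved with the processing. With quantile normalisation over all arrays, CMPF calls were 1 in prevention and 3 in reversal. With probe-set means there were 0 CMPF calls in reversal (limma; 5 in the main analysis). Counting all 18 arrays gave 36 CMPF calls in prevention. Fits on 1 model gave 1151 HFD calls in prevention, 38 in reversal and 0 CMPF calls in reversal. The index as a covariate gave 17 HFD calls in prevention, 17 CMPF calls in reversal and 0 genes with a difference of HFD effects. With probe sets tested separately, the counts were of probe sets, several of which can stand for 1 gene, so they are not comparable with the gene counts. They were 1552 for HFD in prevention, 2 for CMPF in reversal and 2916 for the difference of HFD effects. Without 1 sample, HFD calls ranged from 8 to 1624 in prevention and from 99 to 577 in reversal, CMPF calls from 0 to 1 and from 0 to 10, and differences from 0 to 2400. The Maco1 HFD value in prevention reversed to 0.01 (adjusted p = 0.97) with probe-set means, whose probe sets differ in sign. Probe-set means also moved the CMPF values of Capn8 in prevention to 0.62, of Maco1 in prevention to 0.07 and of Spon2 in reversal to -0.41. Quantile normalisation ended the prevention HFD calls of Coq10b (-0.46, adjusted p = 0.0504) and Maco1 (-0.31, 0.148) and the Maco1 difference (0.36, 0.199), and no filter ended that of Maco1 (0.0532). Among pathway genes, prevention HFD calls were lost for Coq8a with probe-set means (0.0614) and the 1-model fit (0.0511), for Capn7 with quantile normalisation (0.0562), for Coq4 without a filter (0.0544) and for Cenpu with all but probe-set means, all 18 arrays and the block. Cenpm passed for HFD in prevention without reversal vehicle HFD replicate 3 (adjusted p = 0.0494). Except where stated, the cause was not tested.

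Replicate numbers did not pair the samples: of 16 same-numbered pairs, 6 had a correlation of deviations over 0.1 (range -0.345 to 0.442), and 5 of 17 samples correlated best with their own number. With the replicate block, counts were 547 and 256 for HFD, 0 and 5 for CMPF, and 1387 for the difference, and Maco1 missed the threshold for HFD in prevention (0.0904) and for the difference (0.0507), as did Coq4 for HFD in prevention (0.0681).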
